A study of Mus musculus with 24 samples.

Results

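The 6 genes described here, Lcn2, S100a8, S100a9, Saa3, Serpina3n and Hp, were taken by symbol from a table of read counts of mouse left ventricle, and all 6 were among its 24015 gene symbols. Hearts were sampled 2, 4, 7 and 21 days after an operation that was either sham or TAC, the usual abbreviation of transverse aortic constriction, a narrowing of the aorta that loads the ventricle with pressure. Each operation and day had 3 libraries, 24 in all. The labels give no strain, age or sex, and do not say whether the 3 libraries of a group came from separate animals, so that p-values measure the spread between these libraries. The sham hearts carry an operation of their own and are the control of their day.

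The 6 genes are often measured together as signs of inflammation. Acute phase proteins are secreted proteins whose production rises in inflammation, classically in the liver under interleukin-6 and interleukin-1, through the transcription factors STAT3, C/EBP and NF-kB. Lcn2 (lipocalin 2) binds bacterial iron carriers and is made by neutrophils and by stressed tissue cells. S100a8 and S100a9 pair to form calprotectin, a calcium-binding protein held in large amounts by neutrophils and monocytes. Saa3 is a serum amyloid A made outside the liver, Serpina3n is a secreted inhibitor of serine proteases, and Hp (haptoglobin) binds free haemoglobin.

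Lcn2 and Serpina3n rose after TAC at days 2 and 4, and they were the 2 of 5 tested members that passed the test at either day, where 4.58% and 24.6% of all tested genes were called. Lcn2 was 4.06-fold and 5.45-fold higher, and Serpina3n 3.50-fold and 7.52-fold higher, at days 2 and 4. The call of Serpina3n at day 2 was near the threshold and was lost in most alternatives, as given beside its values. S100a8, S100a9 and Hp passed no test of TAC against sham at any day, and Saa3 had too few reads to be tested with the rest. At days 7 and 21 Lcn2 of TAC hearts overlapped that of sham hearts. Serpina3n did not pass at these days and varied widely among TAC libraries. TAC replicate 2 lay within the sham range at both days, and the other TAC libraries lay above it, replicate 3 of day 7 by little.

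The promoters of 3 members are shown because 2 of them belong to the genes that rose and the other to a member that did not. They are the 250 bases before the RefSeq start of each gene in the mouse build GRCm38.p6, for Lcn2 chr2:32387740-32387989 (minus strand), for Serpina3n chr12:104406458-104406707 (plus strand) and for S100a9 chr3:90695722-90695971 (minus strand). Capitals mark a match to TTGCNNAA, a core of the sites that C/EBP factors bind.
Lcn2: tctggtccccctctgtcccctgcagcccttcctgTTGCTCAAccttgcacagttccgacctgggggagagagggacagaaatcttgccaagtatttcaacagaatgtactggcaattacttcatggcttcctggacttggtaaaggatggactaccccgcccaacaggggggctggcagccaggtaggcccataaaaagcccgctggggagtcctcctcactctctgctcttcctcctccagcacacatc
Serpina3n: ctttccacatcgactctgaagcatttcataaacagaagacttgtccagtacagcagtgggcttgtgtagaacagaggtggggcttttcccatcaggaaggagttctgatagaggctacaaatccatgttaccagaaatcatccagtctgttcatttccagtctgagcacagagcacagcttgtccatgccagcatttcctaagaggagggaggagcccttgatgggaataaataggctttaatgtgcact
S100a9: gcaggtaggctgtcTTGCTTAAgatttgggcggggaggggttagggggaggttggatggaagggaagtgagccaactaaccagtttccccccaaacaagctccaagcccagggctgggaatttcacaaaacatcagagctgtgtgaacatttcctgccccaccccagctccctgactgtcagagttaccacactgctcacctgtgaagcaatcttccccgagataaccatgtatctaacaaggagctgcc
Of the 6 members, 5 had a promoter entry, all but Hp. Both strands were searched from 250 bases before to 50 bases after the start. TTGCNNAA was found in 3 of the 5, and in 10.8% of all 32851 promoters of the table. The match of Lcn2 began 216 bases and that of S100a9 236 bases before the start, both on the gene's strand, and that of Saa3, TTATGCAA as read on the gene's strand, 99 bases before it on the other strand. TTCNNNGAA, a core of STAT sites, and GGGA followed after any 2 bases by TTCC, a core of NF-kB sites, were in none of the 5, and in 8.30% and 1.47% of all promoters. The matches describe these letters only. Serpina3n and S100a8 held none of the 3 motifs in this window. The part of these factors in the effects of TAC was not tested.

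Each library had between 10.7 and 17.6 M reads (M, 1000000). Levels are given as CPM (counts per 1000000 reads, with TMM scaling) within a gene. Of all symbols, 13816 had enough reads to be tested, among them 5 members, while Saa3 fell below the filter. A gene is called when its adjusted p is under 0.05 in the quasi-likelihood test of edgeR, in 1 fit of all 24 libraries with p-values adjusted by Benjamini-Hochberg over every tested gene. Log2 fold changes are TAC over sham and carry their SE. Myl7, an atrial gene that ventricular muscle hardly expresses, was over 30 CPM in sham replicates 2 and 3 of day 2, TAC replicate 1 of day 7 and sham replicate 2 of day 21, and calls of day 2 are given with and without these libraries.

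Lcn2 in sham hearts of day 2 had 12.6, 4.78 and 8.74 CPM. After TAC the 3 libraries of that day had 39.0, 28.1 and 38.6 CPM. Every TAC library thus lay above every sham library, and the highest sham value was under the lowest TAC value. The means were 8.70 ± 3.90 and 35.2 ± 6.19 CPM (SD, n = 3 each), and the log2 fold change was 2.02 ± 0.31 (edgeR adjusted p = 0.00517). Lcn2 kept its call without each of the 6 libraries of the day in turn, with the highest adjusted p, 0.0499, without sham replicate 2. The call was lost without the libraries over 30 CPM of Myl7, which left 1 sham library of day 2 (log2 fold change 1.49, adjusted p = 0.334), and when only the 6 libraries of the day entered the fit (adjusted p = 0.103).

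At day 4 Lcn2 was lower in both groups. Sham libraries had 1.67, 2.19 and 3.45 CPM, and TAC libraries 18.2, 13.4 and 8.82 CPM, again without overlap. The log2 fold change was 2.45 ± 0.36 (adjusted p = 0.000232), and it was called without each library of the day and in 12 of 12 other settings. Of all tested genes, 3.73% were called higher at day 2 and 14.4% at day 4. All 3 TAC libraries were above all 3 sham libraries in 11.2% of tested genes at day 2 and in 21.5% at day 4.

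At day 7 the 2 groups of Lcn2 overlapped. Sham libraries had 4.58, 6.74 and 5.77 CPM and TAC libraries 3.48, 6.25 and 3.29 CPM (log2 fold change -0.41 ± 0.35, adjusted p = 0.413). At day 21 sham libraries had 2.98, 2.63 and 3.75 CPM and TAC libraries 2.58, 3.14 and 4.79 CPM (0.17 ± 0.38, adjusted p = 0.850). Members called were 0 of 5 at both days, where 23.2% and 1.09% of all tested genes were called. At an unadjusted p under 0.05 there was 1 member at day 7, Serpina3n, and there were 2 at day 21, Serpina3n and S100a9, and DESeq2 called 0 members at day 7 and 1, Serpina3n, at day 21.

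The effect of TAC on Lcn2 itself differed between days. A test of the 4 day effects together gave an adjusted p = 0.0118 for Lcn2, the 1 member of 5 that passed it, against 0.369% of all tested genes. From day 4 to day 7 its log2 effect changed by -2.86 ± 0.50 (adjusted p = 0.0352). Among all tested genes 7 passed this comparison, 0.0507%, with 6 of them higher at day 7 (0.0434%) and Lcn2 being the single gene in the lower direction (0.00724%). The joint test was passed without each of the 24 libraries in turn, but not with voom (adjusted p = 0.0578) or without the libraries over 30 CPM of Myl7 together (adjusted p = 0.0793). The step from day 4 to day 7 passed without 9 of the 24 libraries, each left out in turn, and was lost without the others, over all 24 with a difference of -3.19 to -2.58 and an adjusted p of 0.0127 to 0.153. Of 10 other settings with an adjusted p it passed in 7 (adjusted p = 0.00599 to 0.141), and it was lost, among others, with voom and without the Myl7 libraries. Between days 2 and 4 the effect differed by 0.43 ± 0.47 (adjusted p = 0.825).

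Lcn2 also varied among the sham hearts. Its mean in sham libraries was 8.70 ± 3.90 CPM at day 2, 2.44 ± 0.92 at day 4, 5.69 ± 1.08 at day 7 and 3.12 ± 0.57 at day 21 (SD, n = 3 each). The test over sham days called Lcn2 (adjusted p = 0.0334) and no other of the 5 members, against 0.68% of all tested genes. This call remained without sham replicate 2 of day 2 or sham replicate 3 of day 4 and was lost without each of the other 10 sham libraries (adjusted p = 0.0533 to 0.167). In order of level, TAC day 2 stood alone at the top, TAC day 4 overlapped sham day 2, and the remaining 5 groups lay between 1.67 and 6.74 CPM.

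**Figure D1:**
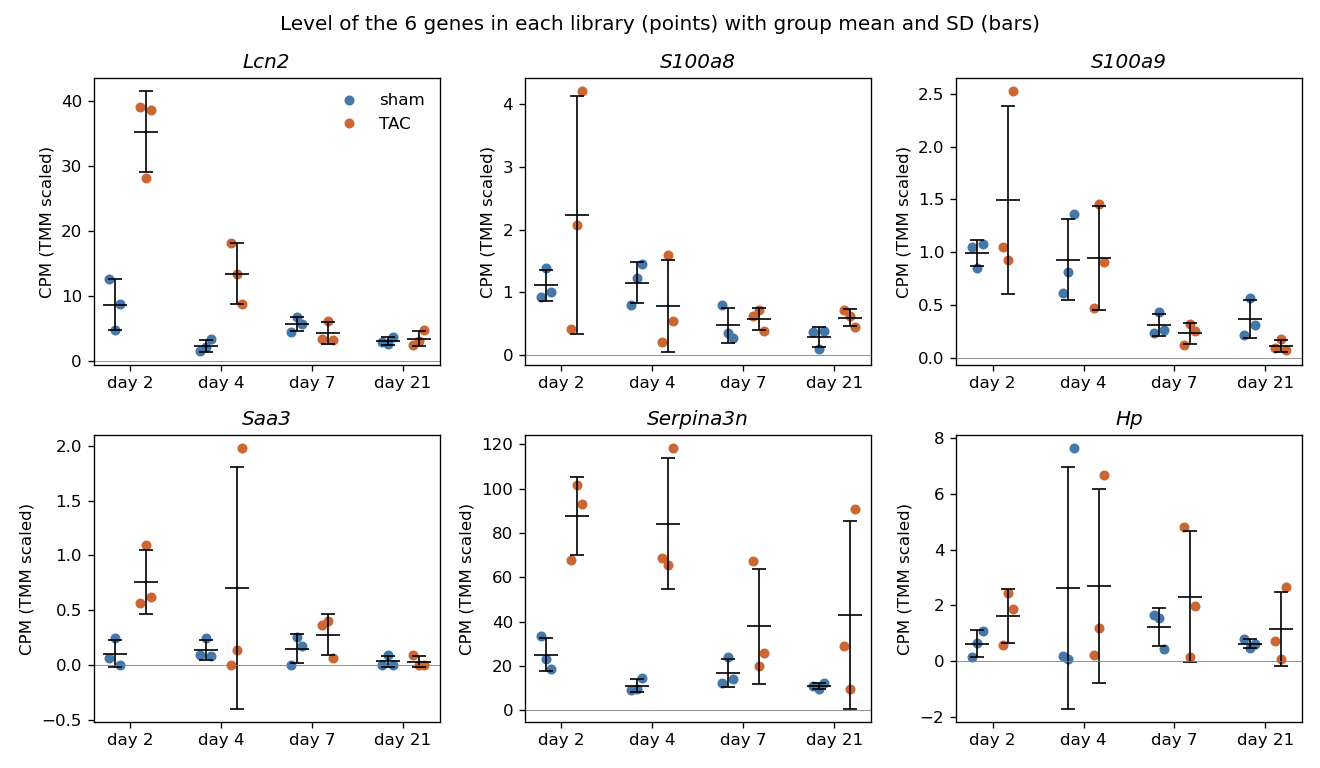
CPM of each gene (vertical axes, linear, each with its own range) in the 24 libraries by day, sham in blue and TAC in orange, with bars for the mean and SD of 3 libraries. TAC libraries of Lcn2 lie apart from sham at days 2 and 4, those of Serpina3n also spread widely at days 7 and 21, and S100a8, S100a9, Saa3 and Hp stay at or under 7.62 CPM.

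Serpina3n had the most reads of the 6, 100 to 2212 in a library. At day 2 its sham libraries had 33.4, 23.0 and 18.8 CPM and its TAC libraries 68.0, 102 and 93.3 CPM, with no overlap. The log2 fold change was 1.81 ± 0.52 (adjusted p = 0.0485). This call was lost without each of 5 of the 6 libraries of the day (log2 fold change 1.64 to 2.07, adjusted p = 0.0921 to 0.216) and remained without TAC replicate 1. It was also lost in 7 of 12 other settings, with log2 fold changes of 1.397 to 1.85 and adjusted p from 0.0553 to 0.526. Among these were no scaling factors, voom, both RPKM settings, only the 6 libraries of the day, and leaving out the libraries over 30 CPM of Myl7, which gave the lowest value and the highest p.

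The largest change of Serpina3n was at day 4. Sham libraries had 9.32, 9.50 and 14.8 CPM, and TAC libraries 69.0, 65.5 and 118 CPM. The lowest TAC library was above the highest sham library by a wide margin, the log2 fold change was 2.91 ± 0.56 (adjusted p = 0.00134), and the call was made without each library of the day and in 12 of 12 other settings.

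At day 7 the sham libraries of Serpina3n had 12.2, 24.03 and 13.9 CPM and the TAC libraries 67.6, 20.0 and 25.9 CPM. TAC replicate 1 was far above the rest, and TAC replicate 2 lay among the sham values (log2 fold change 1.19 ± 0.53, adjusted p = 0.110). Without TAC replicate 1, which also held 60.6 CPM of Myl7, the log2 fold change was 0.47 (adjusted p = 0.623), and without TAC replicate 2 it was 1.49 (adjusted p = 0.0482). At day 21 sham libraries had 11.1, 9.40 and 12.2 CPM and TAC libraries 29.0, 9.68 and 90.8 CPM. The TAC libraries spanned the whole range from sham level to the level of days 2 and 4 (log2 fold change 1.99 ± 0.56, adjusted p = 0.0778). Without TAC replicate 3 the log2 fold change was 0.82 (adjusted p = 0.498), and without TAC replicate 2 it was 2.46 (adjusted p = 0.00882).

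The effect of TAC on Serpina3n was not shown to differ between days (adjusted p = 0.574 for the 4 days together). Averaged over the 4 days it was 1.97 ± 0.27 (adjusted p = 1.12e-05), and that of Lcn2 1.06 ± 0.18 (adjusted p = 7.89e-05). These were 2 of 5 tested members, a share near that of all tested genes, of which 45.7% were called in this comparison in either direction and 24.4% called higher. Both averaged effects passed without each of the 24 libraries. In an exact permutation test of log2 CPM with labels exchanged within days (two-sided, 160000 assignments), p was 0.0001125 for Serpina3n and 0.00565 for Lcn2, 0.510 for S100a8, 0.334 for S100a9 and 0.347 for Hp. The mean log2 CPM was higher in TAC at 4 of 4 days for Serpina3n and Hp, at 3 of 4 for Lcn2 and S100a8 and at 1 of 4 for S100a9, so that this tally did not set the called members apart.

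The TAC library with the most Serpina3n was at each of the 4 days also the one with the highest summed level of 7 fibroblast markers. Among these markers are the collagen genes Col1a1 and Col3a1. At 3 of 4 days it was the one with the lowest sum of 5 ventricular muscle markers. At each of the 4 days it also had the highest atrial, adipocyte and hepatocyte sums and the most Hp among TAC libraries. The match was thus not particular to fibroblast markers. It did not hold at every day for the neutrophil, monocyte and macrophage, endothelial or blood sums. At day 21 the fibroblast sum was 2712, 1253 and 3849 CPM in TAC replicates 1, 2 and 3, and 1375 to 1693 CPM in sham libraries. At day 7 it was 7517, 1709 and 3405 CPM in TAC, and 1395 to 1768 CPM in sham. At days 2 and 4 it was 1554 to 2779 and 3421 to 6956 CPM in TAC, and 1489 to 1734 and 1271 to 1527 CPM in sham. All 7 fibroblast markers had reads. The part of these or of the other cell types in the Serpina3n result was not tested. In RNA of whole ventricle a change in the number of cells of a type and in RNA per cell cannot be told apart.

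Other Serpina3 genes are near copies of Serpina3n, and reads between them may be split by counting. The 10 other Serpina3 symbols held 1023 reads in all, 7.08% of those of Serpina3n. Serpina3i rose at day 4, from 0.146 ± 0.254 to 2.56 ± 1.63 CPM (SD, n = 3 each), with 5 sham and 129 TAC reads (adjusted p = 0.00261). It was at or under 4.06 CPM in all libraries, far below the level of Serpina3n.

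**Figure D2:**
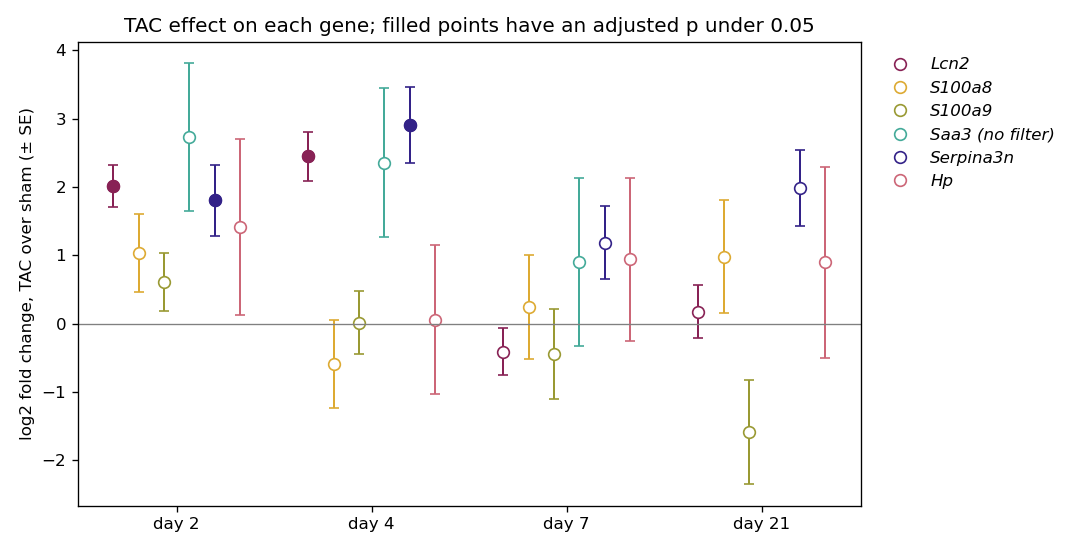
Log2 fold change of TAC over sham (vertical axis) with its SE for each gene at each day, with filled points for an adjusted p under 0.05. Saa3 comes from a fit without the filter on low counts and is not plotted at day 21, where each group held 1 read. Filled points are those of Lcn2 and Serpina3n at days 2 and 4, and the value of Lcn2 falls from 2.45 at day 4 to -0.41 at day 7.

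S100a8 and S100a9, the calprotectin subunits, were present in every library at low level, with 1 to 75 and 1 to 45 reads. S100a8 at day 2 had 0.922, 1.39 and 1.003 CPM in sham and 0.40, 2.08 and 4.21 CPM in TAC. S100a9 had 1.05, 0.85 and 1.07 CPM in sham and 1.05, 0.92 and 2.53 CPM in TAC. Groups overlapped for both genes, and TAC replicate 3 was the highest library of the series for both. The log2 fold changes were 1.03 ± 0.58 for S100a8 (adjusted p = 0.331) and 0.61 ± 0.43 for S100a9 (adjusted p = 0.452).

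At day 4 S100a8 had 0.79, 1.22 and 1.44 CPM in sham and 0.20, 1.60 and 0.53 CPM in TAC, and S100a9 0.62, 0.81 and 1.36 CPM in sham and 0.47, 1.46 and 0.91 CPM in TAC. The groups overlapped again, with log2 fold changes of -0.59 ± 0.64 and 0.01 ± 0.46. Both genes were lower at the later days, at most 0.79 CPM. At day 21 the 3 TAC libraries of S100a8 (0.71, 0.61 and 0.44 CPM, 21 reads) were all above sham (0.36, 0.09 and 0.38 CPM, 11 reads), and those of S100a9 (0.09, 0.17 and 0.07 CPM, 4 reads) were all below sham (0.22, 0.56 and 0.31 CPM, 13 reads). Neither passed the test (adjusted p = 0.570 and 0.286), and 11.9% and 10.5% of all tested genes had TAC wholly above or wholly below sham at this day. At days 7 and 21 each of these groups held 4 to 25 reads, which sets wide errors.

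Lcn2, S100a8 and S100a9 are all stored by neutrophils, so their reads were set side by side in each library. At day 2 there were 6.37, 2.14 and 4.21 Lcn2 reads for each read of S100a8 or S100a9 in sham, and 26.9, 9.35 and 5.73 in TAC. At day 4 there were 1.19, 1.08 and 1.23 in sham, and 26.8, 4.39 and 6.11 in TAC. The 3 sham values of day 4 lay within a narrow range, and all 3 TAC values were above them. At day 7 the ratios were 4.46, 8.67 and 10.8 in sham and 4.75, 6.0 and 5.20 in TAC, and at day 21 they were 5.13, 4.00 and 5.44 in sham and 3.22, 4.00 and 9.29 in TAC, with overlap at both days and at day 2. The ratio is given as a description, and it rests on few S100a8 and S100a9 reads. At day 4 these were 16, 25 and 35 in sham and 10, 44 and 27 in TAC. The ratio of 26.9 at day 2 rests on 18 such reads, and the ratios of days 7 and 21 rest on 6 to 13. Lcn2 is the numerator, so that its rise at days 2 and 4 enters the ratio.

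**Figure D3:**
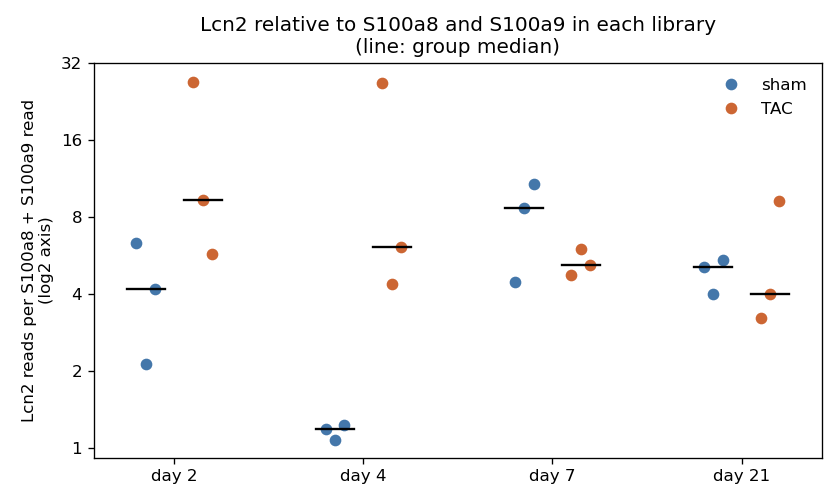
Lcn2 reads for each read of S100a8 or S100a9 (vertical axis, log2 scale) in the 24 libraries by day, with a line at the group median. At day 4 the sham libraries lie at 1.08 to 1.23 and the TAC libraries at 4.39 to 26.8, where the highest rests on 10 S100a8 and S100a9 reads.

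Of 13 defining neutrophil markers, 12 were in the table. The granule gene Elane (neutrophil elastase) was the 1 marker at 0 in every library, and the granule gene Mpo (myeloperoxidase) had 6 reads over 24 libraries. The other granule genes of the list had reads. The number of neutrophils was not measured. The summed level of the markers was 3.73 to 8.29 CPM in sham and 5.07 to 20.0 CPM in TAC at day 2, and 7.23 to 9.23 and 10.4 to 13.4 CPM at day 4, where the groups did not overlap. It was 4.73 to 6.74 and 5.37 to 8.17 CPM at day 7, and 5.24 to 7.52 and 5.76 to 8.39 CPM at day 21. Csf3r, the receptor of granulocyte colony-stimulating factor, had a log2 fold change of 1.498 ± 0.53 at day 2 (adjusted p = 0.110) and passed averaged over days (0.94 ± 0.28, adjusted p = 0.00955). Cxcr2, the chemokine receptor of neutrophils, did not pass (0.16 ± 0.13 averaged over days, adjusted p = 0.329). Csf3r and Cxcr2 made up most of the summed level. In sham replicate 1 of day 4 they had 2.37 and 6.86 CPM of a sum of 9.23 CPM. At day 4 Csf3r had 2.11 to 2.97 CPM in sham and 4.45 to 7.99 CPM in TAC (adjusted p = 0.0856). Cxcr2 overlapped there, with 4.74 to 6.86 CPM in sham and 4.61 to 5.93 CPM in TAC. Of a wider list of neutrophil markers 8 were tested, and 1, 1, 1 and 0 rose at days 2, 4, 7 and 21, none fell, and 3 rose averaged over days. Of all tested genes, 3.73%, 14.4%, 13.1% and 0.622% were called higher at these days, and 24.4% averaged over days. The counts at days 4 and 7 were thus near the share of all tested genes. Clec4d, a lectin of myeloid cells, rose at day 2 from 0.152 ± 0.026 to 2.67 ± 3.53 CPM (SD, n = 3 each; log2 fold change 4.08 ± 1.013, adjusted p = 0.0255) and averaged over days (2.62 ± 0.63, adjusted p = 0.00198). Its TAC libraries of day 2 ranged from 0 to 6.68 CPM (median 1.33), and the lowest was under the sham range of 0.132 to 0.181 CPM. Padi4, which modifies histones in neutrophils, rose at day 4 from 0.168 ± 0.091 to 1.06 ± 0.38 CPM (2.62 ± 0.79, adjusted p = 0.0198) and averaged over days (2.16 ± 0.41, adjusted p = 0.000292). The part of these cells in the Lcn2 result was not tested.

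Of 25 tested monocyte and macrophage markers, 8, 18, 14 and 0 rose at the 4 days and none fell, where 3.73%, 14.4%, 13.1% and 0.622% of all tested genes were called higher. Of 13 defining markers 12 were in the table, none at 0 throughout, and their summed level was 264 to 369 CPM in sham and 357 to 659 CPM in TAC at day 2, and 279 to 320 and 669 to 895 CPM at day 4. At day 7, when Lcn2 of TAC hearts overlapped sham, it was 285 to 300 CPM in sham and 363 to 595 CPM in TAC, and at day 21 it was 239 to 252 and 269 to 384 CPM. The groups overlapped at day 2 and at none of the other days. The part of these cells was not tested.

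Saa3 had 105 reads in all 24 libraries. At day 2 there were 1, 4 and 0 reads in sham and 7, 19 and 11 in TAC, so that each TAC library was above each sham library. At day 4 there were 1, 3 and 1 in sham and 0, 2 and 37 in TAC. Of the 39 TAC reads of day 4, 37 were in replicate 3. At day 7 there were 0, 3 and 2 reads in sham and 6, 5 and 1 in TAC, and at day 21 there was 1 read in each group.

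A fit without the filter on low counts, over 18660 genes, gave Saa3 log2 fold changes of 2.73 ± 1.08 at day 2 (adjusted p = 0.193), 2.35 ± 1.09 at day 4 (adjusted p = 0.150) and 0.91 ± 1.23 at day 7 (adjusted p = 0.691). Without TAC replicate 1 of day 4, the TAC library of that day with 0 Saa3 reads, Saa3 passed the filter and was called (2.91, edgeR adjusted p = 0.0424). That fit left the TAC libraries with 2 and 37 reads. Saa3 also passed the filter without TAC replicate 2 or without any of the sham libraries of day 4. It was not called there at day 4 (adjusted p = 0.0572 to 0.262). In 7 libraries Saa3 was at 0, which allows up to 0.205 to 0.253 CPM, for counting error only. The liver forms of serum amyloid A, Saa1 and Saa2, had 3 and 2 reads in all.

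Hp was uneven between libraries of the same group. At day 2 it had 0.13, 0.67 and 1.07 CPM in sham and 0.56, 2.43 and 1.85 CPM in TAC. At day 4 it had 0.18, 0.08 and 7.62 CPM in sham and 0.20, 1.18 and 6.68 CPM in TAC. Sham replicate 3 of day 4 was the highest of all 24. The log2 fold changes were 1.41 ± 1.29 at day 2 (adjusted p = 0.581) and 0.06 ± 1.09 at day 4 (adjusted p = 0.975).

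At day 7 Hp had 1.66, 1.56 and 0.44 CPM in sham and 4.82, 0.16 and 1.96 CPM in TAC, and at day 21 it had 0.80, 0.47 and 0.61 CPM in sham and 0.71, 0.09 and 2.65 CPM in TAC. At both days the TAC libraries held the highest and the lowest value (log2 fold changes 0.94 ± 1.19 and 0.90 ± 1.39, adjusted p = 0.597 and 0.780).

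The sham library with the most Hp stood apart in adipocyte genes. It had 13.6 CPM of Adipoq (adiponectin), at most 1.403 CPM in any other library, and 36.6 CPM of Cfd (adipsin). The 5 defining adipocyte markers summed to 71.3 CPM there, to 0.264 and 0.487 CPM in the other sham libraries of day 4 and to at most 7.73 CPM in any other library. All 5 had reads, and their part in the Hp values was not tested. As a sham library with the highest Hp of all 24, its removal raises the effect of TAC on Hp in any case. Without it, Hp averaged over days had a log2 fold change of 1.90 (edgeR adjusted p = 0.0193). With it the value was 0.83 ± 0.62 (adjusted p = 0.292). Of 24 fits that left out 1 library, this was the 1 that called Hp averaged over days. In these fits 41.0% to 48.6% of all tested genes were called. At day 4 the log2 fold change of Hp without this library was 4.35 (adjusted p = 0.0712).

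The genes whose log2 CPM was most like that of each member over the 24 libraries are a description, since libraries share depth, day and operation. For Lcn2 they were Ccl6, a chemokine of myeloid cells (Pearson r = 0.84), and Hsp90b1 and Calr, chaperones of the endoplasmic reticulum (r = 0.80 each), among 12097 genes whose average log2 CPM was 1 or more. For Serpina3n they were Dzip3 (r = 0.91), Osmr, the receptor of oncostatin M (r = 0.90), and Fhl1 (r = 0.90). For Hp they were Car3 (r = 0.79), Nme7 (r = 0.77) and Cfd (r = 0.77), of which Car3 and Cfd are abundant in fat tissue. For S100a8 and S100a9, with few reads, the leading genes were Tprkb (r = 0.78) and Lclat1 (r = 0.85). Between members, Lcn2 and Serpina3n had r = 0.72, S100a8 and S100a9 r = 0.60, and Lcn2 and S100a8 r = 0.34.

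**Figure D4:**
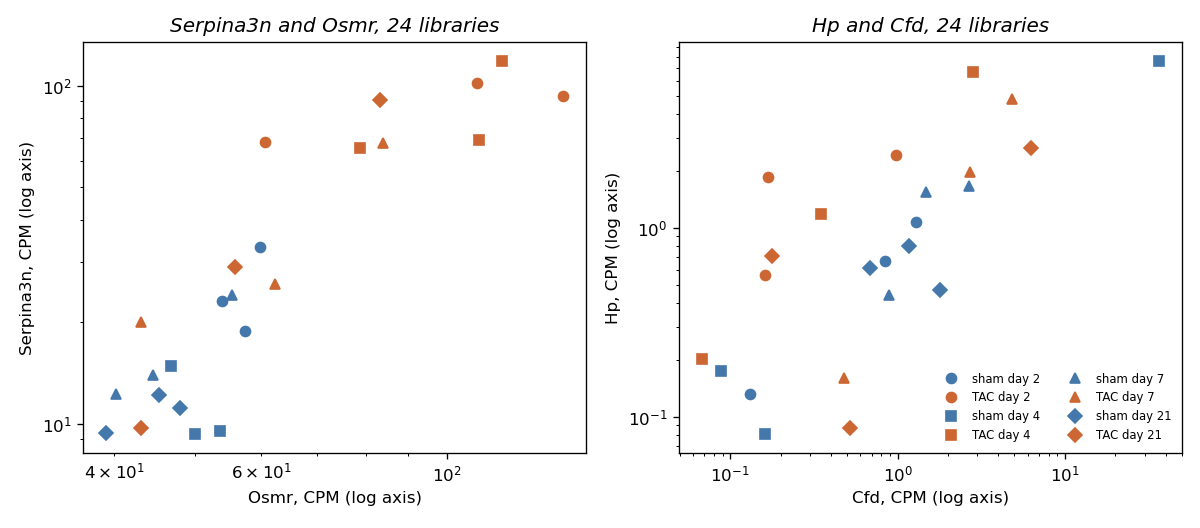
Serpina3n against Osmr and Hp against Cfd, in CPM on log axes, with each of the 24 libraries as a point, sham in blue, TAC in orange, and the day as the shape. TAC libraries with much Serpina3n mostly have much Osmr. An exception is TAC replicate 1 of day 2, with 68.0 CPM of Serpina3n and 60.6 CPM of Osmr, near the 59.8 CPM of sham replicate 1. The sham library of day 4 with 7.62 CPM of Hp has the most Cfd, 36.6 CPM.

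Levels of different genes are compared per length, as the RPKM (reads per kilobase and 1000000 reads) that the authors deposited. Averaged over the 24 libraries the level was 19.6 RPKM for Serpina3n, 14.4 for Lcn2, 4.69 for S100a8, 1.99 for S100a9, 1.51 for Hp and 0.840 for Saa3. In TAC hearts of day 2, Lcn2 at 53.1 ± 9.46 and Serpina3n at 43.6 ± 8.87 RPKM (SD, n = 3 each) did not differ beyond their spread. In TAC hearts of day 21 Lcn2 was at 5.19 ± 1.74 RPKM and Serpina3n at 21.0 ± 20.7 RPKM. The order was not the same in every group: in sham hearts of day 4, S100a8 was at 6.0 ± 1.48, Serpina3n at 5.40 ± 1.51 and Lcn2 at 3.63 ± 1.39 RPKM, which overlap within their SD. Lcn2 and Serpina3n together made up 39.6% to 95.8% (median 77.5%) of the summed RPKM of the 6 genes in a library, and 39.6% to 51.1% in the 3 sham libraries of day 4, which had the lowest median of the 8 groups.

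Other genes of the pathway were counted against all tested genes, of which 3.73%, 14.4%, 13.1% and 0.622% were called higher and 0.854%, 10.1%, 10% and 0.47% lower at days 2, 4, 7 and 21. A list of inducers and signalling of the acute phase included genes of interleukin-6, interleukin-1 and tumour necrosis factor signalling. Of its 27 tested genes, 4 rose and 0 fell at day 2, 10 rose and 1 fell at day 4, 5 rose and 1 fell at day 7 and none passed at day 21. Their median log2 fold change was 0.43, 0.48, 0.29 and 0.13 at the 4 days, where the median of all tested genes was between -0.01 and 0.01. Socs3, the feedback inhibitor that STAT3 induces, rose by 2.08 ± 0.49 at day 2 (log2, adjusted p = 0.0201) and by 2.14 ± 0.50 at day 4 (adjusted p = 0.00448), and did not pass at day 7 (0.51 ± 0.52, adjusted p = 0.499). At day 2 TAC replicate 1 had 3.14 CPM of Socs3, within the sham range of 2.00 to 3.23 CPM. Stat3 itself rose by 0.48 ± 0.10 at day 2, 0.66 ± 0.10 at day 4 and 0.48 ± 0.10 at day 7 (adjusted p = 0.0109, 0.000281 and 0.00224). Osmr rose at day 4 (1.02 ± 0.26, adjusted p = 0.00748). Il6 had 35 reads in TAC and 0 in sham at day 4 (adjusted p = 0.0269), with 7, 2 and 26 reads in TAC replicates 1, 2 and 3. Il1b, the interleukin-1 of myeloid cells, did not pass at any day.

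Of 21 other tested acute phase genes, 4, 8, 3 and 1 rose and 0, 0, 1 and 0 fell at days 2, 4, 7 and 21, with a median log2 fold change of 0.75, 0.97, 0.76 and 0.36. At day 7 the share that rose was near the 13.1% of all tested genes called higher. Mt2, a metallothionein, passed at all 4 days, at 1.35 ± 0.22, 1.67 ± 0.25, 0.70 ± 0.23 and 1.11 ± 0.24 (adjusted p = 0.00579, 0.00029, 0.0314 and 0.0318). Cd14, the co-receptor of lipopolysaccharide, rose at days 2, 4 and 7, by 1.005 ± 0.28, 0.97 ± 0.28 and 1.04 ± 0.29 (adjusted p = 0.0416, 0.0170 and 0.0162). The gene that fell at day 7 was Lrg1, a leucine-rich glycoprotein of plasma (-0.90 ± 0.25, adjusted p = 0.0156), named after its values were seen.

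Of 9 other tested genes listed with the S100 family, 4, 5, 3 and 0 rose and none fell at the 4 days. S100a4 rose at days 2 and 4 (2.01 ± 0.44 and 1.71 ± 0.46, adjusted p = 0.0149 and 0.0112). S100a6 and S100a11, expressed in fibroblasts and many other cells, rose at days 2, 4 and 7, S100a11 at day 4 from 68.3 ± 7.75 to 216 ± 80.6 CPM (1.66 ± 0.24, adjusted p = 0.000226). S100a1, the form of cardiac muscle, did not pass at any day (-0.24 ± 0.12 at day 2). Of 9 tested receptors and partners of the members, 0, 3, 3 and 0 rose and 0, 1, 1 and 0 fell. Tlr4, a receptor of calprotectin, rose at days 4 and 7 (0.60 ± 0.18 and 0.59 ± 0.18, adjusted p = 0.0210 and 0.0243), and Slc22a17, a receptor of Lcn2, did not pass at any day. Of 11 tested genes that attract or bind neutrophils, 2, 6, 2 and 0 rose and none fell. Beside the counts of these lists, 3.73%, 14.4%, 13.1% and 0.622% of all tested genes were called higher at the 4 days. Called lower were 0.854%, 10.1%, 10% and 0.47%.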

How the data were processed

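RNA of mouse left ventricle was sequenced on an Illumina NextSeq500 from NuGEN Ovation libraries, per the labels' protocols. The submitters' processing notes name TopHat, DESeq and hg19, a human build that cannot have given mouse symbols, while the mouse build, annotation, counter and strand use were not given in the sources used here. Raw read counts per gene symbol and a table of RPKM were deposited by the authors. Of zero counts, 10.8% had an RPKM above 0, so that tests rest on the counts.

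In R 4.3.3, edgeR 4.0.16 was run with filterByExpr, TMM, 8 group means and 16 residual degrees of freedom, with two-sided quasi-likelihood tests and Benjamini-Hochberg adjustment over 13816 genes. It was tested on simulated counts. An SE is the log2 fold change divided by the square root of F. Depth was 10.7 to 17.6 M reads (M, 1000000). Chi-square per degree of freedom between replicates was 3.56 to 60.6, above counting noise, and no libraries were merged. Log2 fold changes of genes with few reads depend on the prior count.

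Members, lists, motifs and the alternatives on Myl7 were chosen with earlier results of these data known. Named genes are the 6 members, fixed markers and relatives, up to 3 genes of a list by smallest p averaged over days, and the 3 genes most like a member. A gene that this rule names is not reported here. Alternatives used other scalings, filters, DESeq2 1.42.0, limma 3.58.1 (voom, and log2 of the deposited RPKM plus 1 or 0.1), a replicate block, fewer libraries, and Myl7 as a covariate.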

Additional observations from a re-analysis of the deposited data

Results flagged for a closer look

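The effect of TAC on Lcn2 differed between the days by a test of the difference itself (edgeR's quasi-likelihood test over the 4 day effects, adjusted p = 0.0118). Lcn2 was higher in 3 of 3 TAC libraries than in every sham library at days 2 and 4, and the groups overlapped at days 7 and 21.

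The same was found for the step from day 4 to day 7 alone, where the log2 effect on Lcn2 changed by -2.86 ± 0.50 (adjusted p = 0.0352), from 2.45 to -0.41. It was lost in 15 of 24 fits that left out 1 library and in 3 of 10 other settings (adjusted p up to 0.153 and 0.141).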

How the results depend on the processing

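At day 2 the count of members called, 2, was 1 with no scaling factors, with voom, with log2(RPKM + 1), with log2(RPKM + 0.1) and with the replicate block, 0 with only the 6 libraries of the day and 0 without the libraries over 30 CPM of Myl7, and 1 to 2 when each library was left out. At day 4 and averaged over days it was 2 in every other setting and 2 to 3 with libraries left out. At day 7 (0) it was 0 to 1 with libraries left out, and at day 21 (0) it was 1 with DESeq2, 1 with Myl7 as a covariate and 0 to 1 with libraries left out. The call of Lcn2 between days (1) was 0 with voom and 0 without the Myl7 libraries, and that over sham days (1) was 0 with voom, both RPKM settings, the replicate block and without the Myl7 libraries, and 0 to 1 with libraries left out. Values that changed sign were none of the called ones: Lcn2 at day 21 was -0.065 with the Myl7 covariate, S100a9 at day 4 was -0.063 with voom, -0.0099 and -0.033 with log2(RPKM + 1) and log2(RPKM + 0.1) and -0.016 with the replicate block, and Hp was -1.36 at day 4 and -0.34 at day 7 with the Myl7 covariate and -0.14 at day 7 without the Myl7 libraries. With libraries left out, Lcn2 at day 21 ranged from -0.13 to 0.35, S100a8 at day 7 from -0.023 to 0.86, S100a9 from -0.012 to 0.87 at day 2 and from -0.41 to 0.40 at day 4, and Hp from -1.92 to 4.35 at day 4, -0.14 to 1.46 at day 7 and -0.67 to 1.42 at day 21. The cause of these changes was not tested. The labels do not say whether replicate numbers pair the libraries. Same-numbered sham and TAC libraries had r = -0.151 to 0.141 over 12 pairs, 1 of them over 0.1. Of 12 TAC libraries, 3 correlated best with their own number. With 3 libraries in a group these values cannot decide whether libraries were paired. Depth limits S100a8, S100a9, Saa3 and Hp, whose median reads in a library were 9, 6.5, 1 and 11.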
